A study of Mus musculus with 3 samples.

Results

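This comparison sets the hippocampal nuclei of doxorubicin-treated mice beside those of untreated mice, using every barcode of both libraries: 10909 control barcodes and 12221 doxorubicin barcodes, 23130 of the 35322 in the series. A library of 12192 barcodes from mice that had ACY-1083, which inhibits the deacetylase HDAC6, besides doxorubicin was left out, because the headers of its matrix name another version of the counting software. In each library the left and right hippocampi of 4 mice, frozen and pooled, were lysed with the detergent Triton X-100, and the released nuclei were profiled by droplet sequencing of transcript 3' ends (10x Genomics, version 3 chemistry). The control mice had no treatment and the other mice had doxorubicin. The labels give no dose, schedule, sex, strain or age, and they do not say that the control mice had a vehicle injection.

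Doxorubicin is an anthracycline used in chemotherapy. It intercalates into DNA and traps topoisomerase II, the enzyme that passes one DNA duplex through a transient break in another, so that breaks remain. Neurons do not divide and hold mainly the beta isoform, Top2b, which acts at promoters, among them those of genes induced by neuronal activity. The drug is also known for redox cycling and for its effects on mitochondria, and it enters the brain poorly.

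UMIs (unique molecular identifiers, 1 per captured transcript) were summed per gene over all barcodes of a library and divided by the library total to give CPM, the library-scaled UMI count with a common total. There is 1 library on each side and no replicate. No test between treatments was therefore made, no p-value is given, and each ratio is doxorubicin CPM over control CPM with an exact (Clopper-Pearson) 95% interval that covers counting error only. In such sums, fewer cells of a type and less RNA per cell cannot be told apart. Both libraries had near-equal depth: 19175447 UMIs in control and 21458785 in doxorubicin, medians of 1487 and 1485 UMIs and of 934 and 915 genes per barcode, and 27.1% and 27.4% of barcodes under 1000 UMIs. They share 42 barcode sequences. The nuclear RNA Malat1 took 216620 CPM in control and 233240 CPM in doxorubicin. Markers of every hippocampal cell type looked for were detected, along with markers of tissue beside the hippocampus: the summed markers of thalamic or habenular neurons were at 701 and 748 CPM (ratio 1.07), and 1 of them was at 0 in both. Summed markers of dentate gyrus granule neurons were at 679 and 643 CPM (0.947).

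Most transcripts differed little between the libraries. Among the 13929 genes with at least 100 UMIs over both, the median log2 ratio was -0.04 and the 5th to 95th percentiles ran from -0.31 to 0.32. The interval lay above 1 for 1295 genes (9.3%) and below 1 for 2713 (19.5%). A gene was called higher where its whole interval lay more than 25% above 1 and lower where it lay more than 20% below 1 (under 0.8). This left 109 higher genes (0.783%) and 28 lower genes (0.201%). At 1.5-fold there were 11 higher (0.079%) and 4 lower (0.0287%). The 4 lower were Xlr3b, Npas4 and the noncoding RNAs A530013C23Rik and 1700048O20Rik, the last pair named after their values were seen. Of the 109 and 28 calls together, 79.6% were higher. The split depends on scaling: with TMM factors, which centre the bulk of genes and move the median of all genes by 0.05 on the log2 scale, it was 171 higher to 15 lower (91.9%), and with median-of-ratios factors 168 to 16 (91.3%). TMM factors also turned the balance of all intervals, with 14.2% above 1 and 10.8% below, so counts of list members below 1 are given beside the share of all genes and again with TMM factors. The plot of ratio against level shows more called genes above 1 than below it.

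**Figure D1:**
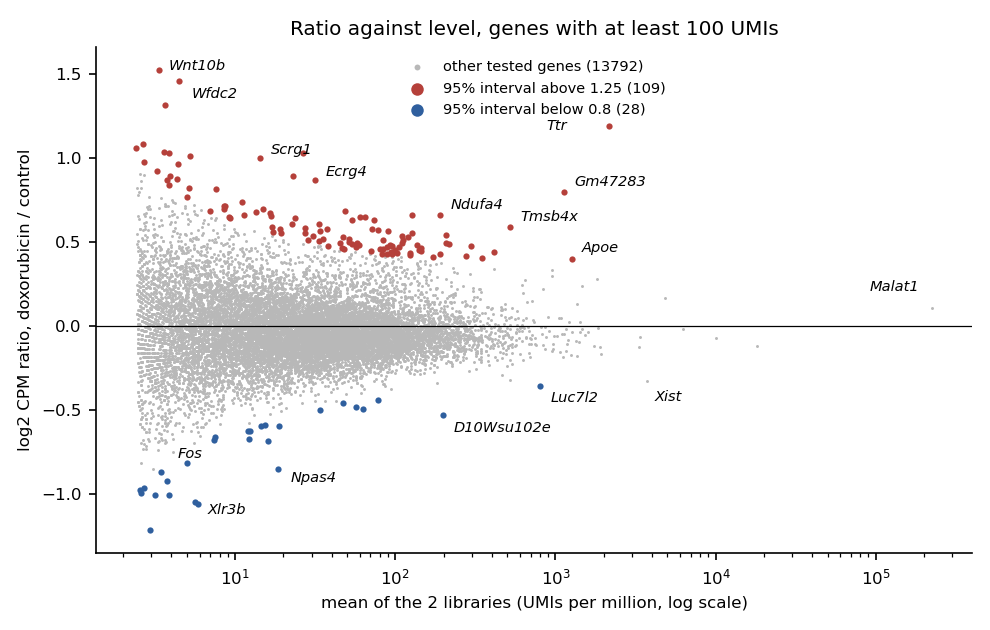
Each point is 1 of the 13929 genes with at least 100 UMIs, plotted by its mean CPM over both libraries (log10 axis) and its log2 ratio of doxorubicin to control; coloured points are the 109 genes called higher and the 28 called lower. The scatter narrows as level rises, and Ttr stands at high level with a ratio of 2.28.

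The gene with the highest lower bound was Ttr, transthyretin, the thyroid hormone and retinol carrier that choroid plexus epithelium secretes. It had 1312 CPM in control (25165 UMIs) and 2987 CPM in doxorubicin (64099 UMIs), a ratio of 2.28 (2.24 to 2.31). A Ttr UMI was present in 85.1% of control and 98.2% of doxorubicin barcodes, and in 50.4% and 75.7% after each barcode was thinned to 500 UMIs. Transcripts of Ttr were thus found in most barcodes of both libraries and were denser in the doxorubicin library. In the choroid-plexus-like cluster Ttr was at 16700 CPM in control and 28650 CPM in doxorubicin (1.72, 1.63 to 1.80), and in granule-like neurons at 1388 and 2937 CPM (2.12). Its interval lay above 1 in 13 of the 13 clusters with at least 100 nuclei in both libraries, from 1.501 in an unnamed cluster led by mitochondrial transcripts to 2.55 in oligodendrocyte-like nuclei. The 12 choroid plexus markers together, Ttr among them, were at 1623 and 3379 CPM (2.08, 2.06 to 2.11). Ttr made up most of both sums (1312 and 2987 CPM), so their ratio is largely that of Ttr. Intervals lay above 1 for 8 of the 12, among them Aqp1, which had 13 and 38 UMIs and did not reach 100. The median log2 ratio of the 11 markers with at least 100 UMIs was 0.37. Intervals held 1 for Kcnj13 (1.05), Prlr (1.03), Slc4a5 and Kcne2. Choroid-plexus-like nuclei were 0.946% of kept control nuclei (99) and 1.24% of kept doxorubicin nuclei (144). The part of free RNA, or of more choroid plexus tissue in the pool, in the Ttr ratio was not tested.

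Several further leading genes are known from cells that line the ventricles. Wfdc2, a secreted protein with whey acidic protein domains (chromosome 2, 164562413 to 164568510, GRCm38), was at 2.40 CPM in control and 6.57 CPM in doxorubicin (2.74, 1.95 to 3.91). Ecrg4, a secreted peptide precursor of choroid plexus and ependyma (chromosome 1, 43730602 to 43742578), was at 22.4 and 40.8 CPM (1.82, 1.62 to 2.05). Ccdc153, a coiled-coil protein of ciliated ependymal cells, was at 3.49 and 7.04 CPM (2.01, interval 1.501 to 2.73). None of the 3 intervals came near 1, although Wfdc2 and Ccdc153 rest on few UMIs. Choroid-plexus-like and ependymal-like nuclei were too few for the comparison by cluster. Of the clusters compared, Wfdc2 had enough UMIs in granule-like (4.68) and CA1-like neurons (3.91) only. Ccdc153 ran from 1.18 in astrocyte-like nuclei to 6.40 in subicular-like or cortical-like neurons. Ecrg4 was highest in oligodendrocyte-like nuclei (2.58). Which cells these transcripts came from was not tested. Summed ependymal markers were at 51.5 and 64.4 CPM (interval of the ratio 1.15 to 1.36).

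Other leading higher genes act in signalling, the cytoskeleton and lipid binding. Wnt10b, a secreted Wnt ligand (chromosome 15, 98770712 to 98778150), had the largest ratio among the named genes, 1.72 CPM in control (33 UMIs) and 4.94 CPM in doxorubicin (106 UMIs), 2.87 (1.93 to 4.38). In granule-like neurons it had 3 UMIs in control and 36 in doxorubicin, a ratio of 10.8 with the wide interval of 3.42 to 54.9, and in CA1-like neurons 3 and 18. Neuronal clusters therefore held a large part of the Wnt10b difference. Crip1, a LIM-domain protein (chromosome 12, 113146316 to 113153879), was at 2.09 and 5.17 CPM (2.48, 1.71 to 3.65). Scrg1, first described as induced in scrapie (chromosome 8, 57455923 to 57477585), was at 9.60 and 19.2 CPM (1.996, 1.67 to 2.39). Spp1, osteopontin, was at 2.56 and 5.22 CPM (2.04, 1.45 to 2.92). The interval of each of these low-level genes was clear of 1. At higher levels, Tmsb4x, thymosin beta 4, which binds actin monomers, was at 416 and 625 CPM (1.503, 1.46 to 1.55). Dbi, which binds acyl-CoA esters and is the precursor of peptides acting at GABA-A receptors, was at 98.6 and 156 CPM (1.58, 1.49 to 1.67).

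**Figure D2:**
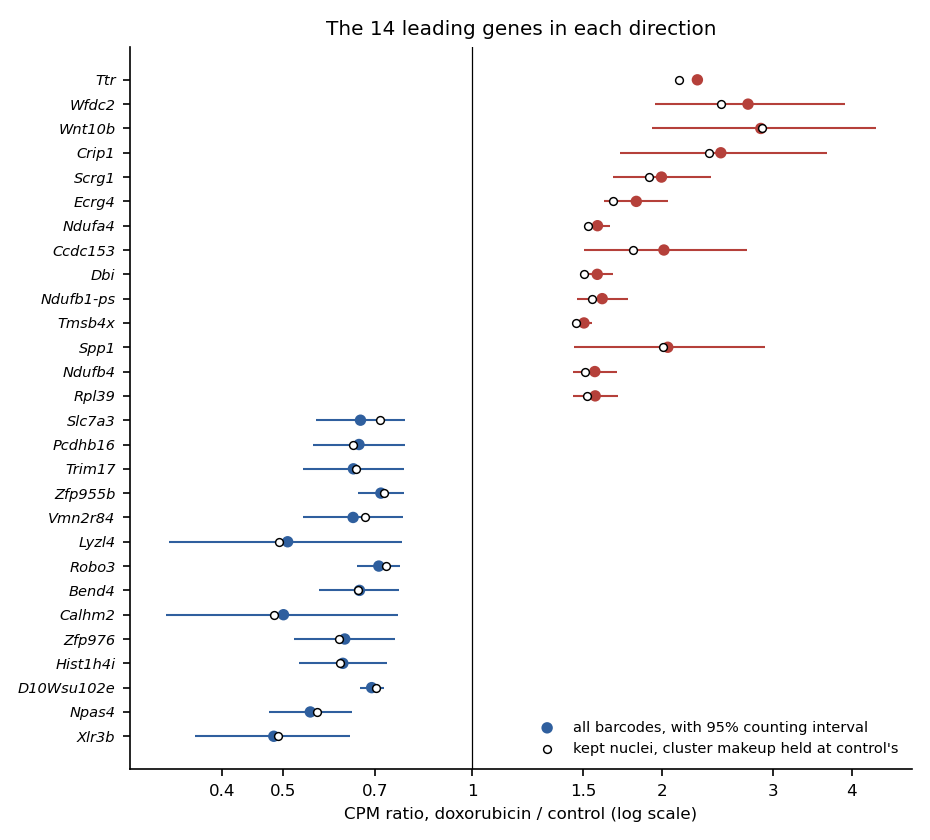
Ratio of doxorubicin to control (log2 axis) with exact 95% counting intervals for the 14 genes with the highest lower bound and the 14 with the lowest upper bound among genes with established names, with open circles for the ratio at fixed cluster shares. Wide intervals belong to genes with few UMIs such as Wnt10b (2.87), and Npas4 (0.553) and Xlr3b (0.484) head the lower genes.

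Subunits of the respiratory chain and ATP synthase were higher in doxorubicin almost throughout. These complexes sit in the inner mitochondrial membrane, where electrons pass from complex I to complex IV and the proton gradient drives ATP synthase (complex V). Of 38 complex I subunits measured, 35 had intervals above 1, none below, and 9 were called higher, with a median log2 ratio of 0.36 against -0.04 for all genes. Complex I subunits whose interval was not above 1 were Ndufa9, Ndufa10 and Ndufs1. Of 42 subunits of complexes II to V, 37 had intervals above 1, none below, and 16 were called higher (median 0.36). The shares of all genes for the same counts were 9.3% above 1 and 0.783% called higher. Summed complex I subunits were at 2332 CPM in control and 3018 CPM in doxorubicin (1.29), and those of complexes II to V at 3960 and 5023 CPM. The respiratory lists were chosen with earlier results of these data known.

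Within these complexes, Ndufa4, a small subunit first assigned to complex I and found with cytochrome c oxidase (chromosome 6, 11900292 to 11907497), was at 148 CPM in control and 234 CPM in doxorubicin (1.58, 1.51 to 1.65). The complex I accessory subunit Ndufb4 (chromosome 16, 37647170 to 37654453) was at 50.2 and 78.5 CPM (1.56, 1.44 to 1.70). Ndufb1-ps, annotated under the name of a pseudogene of a complex I subunit, was at 37.5 and 60.3 CPM (1.61, 1.47 to 1.76), and because its sequence may be shared with other copies its counts are uncertain. The 3 ratios overlapped in their intervals, so the subunits could not be ordered. Cox6c of complex IV was at 168 and 244 CPM (1.46, 1.39 to 1.52), and Uqcr11 of complex III at 57.4 and 85.6 CPM (1.49). Romo1, a small inner-membrane protein that modulates reactive oxygen species, was at 26.7 and 40.5 CPM (1.52).

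Many nuclear genes of respiration carry sites for nuclear respiratory factor 1 (NRF1) at their start. Promoters of 250 bases before to 50 after each start site were taken from RefSeq (GRCm38.p6), and the core letters CGCANGCG were searched on both strands. They occurred in 10 of 33 complex I genes with a promoter (30.3%), in 17 of 32 genes of complexes II to V (53.1%), in 13 of 61 ribosomal protein genes (21.3%) and in 2492 of all 27025 genes (9.22%). Median log2 ratios with and without the letters were 0.38 and 0.35 for complex I, and 0.37 and 0.34 for complexes II to V, so genes with and without them differed little in ratio. The motifs given here were chosen after the values were seen, some others were also looked at, and a match is a description of the letters only. The promoter of Ndufb4 (chr16:37654319-37654618, minus strand) is shown because it holds 3 matches, in capitals, starting 190, 78 and 21 bases before the start site:
Ndufb4: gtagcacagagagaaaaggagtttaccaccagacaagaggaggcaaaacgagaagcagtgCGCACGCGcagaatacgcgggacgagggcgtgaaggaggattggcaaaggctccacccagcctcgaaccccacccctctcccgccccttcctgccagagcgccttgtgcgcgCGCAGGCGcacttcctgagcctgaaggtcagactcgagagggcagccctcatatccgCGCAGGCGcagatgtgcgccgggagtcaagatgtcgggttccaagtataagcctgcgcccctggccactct

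Cytosolic ribosomal proteins, which build the translating ribosome, were likewise higher: 78 of 82 had intervals above 1, none below, and 12 were called higher (median log2 0.28), with summed levels of 9313 CPM in control and 11290 CPM in doxorubicin. Rpl39, among the smallest proteins of the large subunit, was at 46.8 and 73.4 CPM (1.57, 1.44 to 1.70), and Rpl38 at 103 and 150 CPM (1.47). Of small abundant peptides and binding proteins, 36 of 42 had intervals above 1, none below, and 9 were called higher (median 0.21). The shares of all genes were 9.3% above 1 and 0.783% called higher. This list too was chosen with earlier results known. It holds the leading genes Ttr, Ecrg4, Dbi and Tmsb4x and also Cox6c of complex IV, so its counts are not independent of theirs. Transcripts made in mitochondria themselves had a median of 0.39 over the 11 of 13 measured, 9 with intervals above 1. Their sum was at 414 and 520 CPM, and mt-Co1 of complex IV was at 83.5 and 109 CPM (1.31). Factors of translation initiation and elongation, in contrast, had a median of 0.01 over 27 genes (9 above 1, 2 below), proteasome subunits 0.04 over 32 (14 above, 3 below) and glycolytic enzymes 0.04 over 21 (6 above, 3 below). Higher ribosomal and respiratory transcripts were thus not matched by a like median in those 3 lists. Their shares above 1 (33.3%, 43.75% and 28.6%) were still over the 9.3% of all genes. Shares below 1 (7.41%, 9.38% and 14.3%) were under the 19.5% of all genes.

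An unnamed cluster led by mitochondrial transcripts held 119 control nuclei (1.14%) and 360 doxorubicin nuclei (3.10%). In control, its complex I transcripts were at 3.21 times, its ribosomal protein transcripts at 2.996 times and its Ttr at 2.97 times the level in other nuclei. In doxorubicin those values were 2.17, 2.23 and 1.996. Without this cluster the median log2 ratios over kept nuclei were 0.33 for complex I, 0.36 for complexes II to V and 0.27 for ribosomal proteins, close to the values with it. With each cluster held at its share of the control library they were 0.30, 0.33 and 0.23. Mitochondrially encoded genes had a median of 0.41 without the cluster and 0.21 with the shares held.

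**Figure D3:**
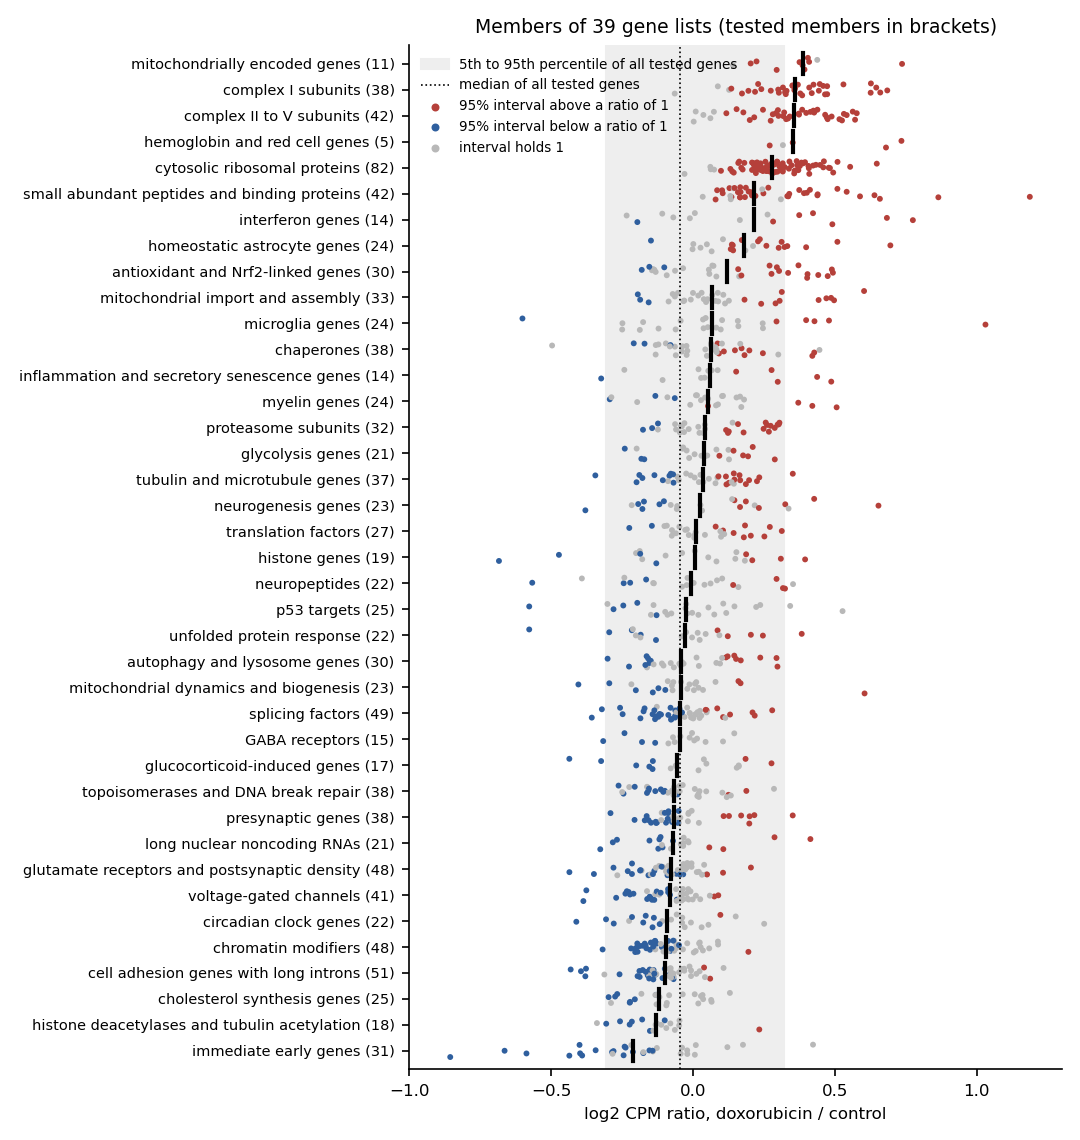
Median log2 ratio of doxorubicin to control for the members (points) of 39 gene lists, with each list's median as a bar and the median (-0.04, dotted) and 5th to 95th percentiles of all genes (grey). Respiratory complexes (0.36) and mitochondrially encoded genes (0.39) are at the top and immediate early genes (-0.21) at the bottom, while p53 targets (-0.02) lie by the median of all genes.

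Genes of red cells, vessels and some glia were also higher. Of 5 hemoglobin and red cell genes, 4 had intervals above 1 (80%, against 9.3% of all genes, median 0.35). Hbb-bs was at 8.29 CPM in control and 13.8 CPM in doxorubicin (1.66), and Hba-a1 at 4.28 and 6.85 CPM (1.60). Summed markers of endothelium were at 58.7 and 78.0 CPM (1.33, 5 of 10 with intervals above 1 and none below). Endothelial-like nuclei were 0.363% of kept control nuclei (38) and 0.577% of kept doxorubicin nuclei (67). With cluster shares held, the ratio of Flt1 went from 1.38 to 1.06, Slco1a4 from 1.45 to 1.10 and Mecom from 1.45 to 1.05. Cldn5 went from 1.64 to 1.29 and Ly6c1 from 1.46 to 1.30. The part of nuclei numbers in the summed endothelial ratio was not tested. Summed pericyte markers had a ratio of 1.19 (2 of 9 above, none below). Fibroblast markers had 1 of 13 above and 1 below. The part of red cells and vessels in the other ratios was not tested. Vim, the intermediate filament vimentin, was at 11.4 and 18.4 CPM (1.62, 1.37 to 1.92).

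Apoe, the main lipid carrier of brain, was at 1090 CPM in control and 1437 CPM in doxorubicin (1.32, 1.30 to 1.34). It was higher in 13 of 13 compared clusters, from 7097 to 8034 CPM in astrocyte-like nuclei (1.13), which express it most, and from 1434 to 2186 CPM in oligodendrocyte-like nuclei (1.53). Mt3, a metal-binding metallothionein, was at 172 and 242 CPM (1.41, 1.35 to 1.47), with a ratio of 1.08 in astrocyte-like and 1.91 in oligodendrocyte-like nuclei. For both genes the ratio was thus lower in astrocyte-like than in oligodendrocyte-like nuclei. Homeostatic astrocyte genes as a list had a median of 0.18 over 24 (15 above 1, 1 below), 0.06 with cluster shares held, and -0.04 inside astrocyte-like nuclei against 0.41 in oligodendrocyte-like and 0.32 in GABAergic-like nuclei. Microglial genes had a median of 0.07 over 24 (5 above, 1 below) and inflammatory genes 0.06 over 14 (5 above, 1 below). Only those 14 of 34 inflammatory genes had enough UMIs to be compared. Shares above 1 were 62.5% for the astrocyte, 20.8% for the microglial and 35.7% for the inflammatory list, against 9.3% of all genes. Shares below were 4.17%, 4.17% and 7.14%, against 19.5%.

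Among stress responses, antioxidant genes had a median of 0.12 over 30 (14 above 1, 3 below). Their share above 1 was 46.7%, against 9.3% of all genes, and their share below was 10%, against 19.5%. Prdx1, a peroxiredoxin that reduces peroxides, was at 48.0 CPM in control and 67.3 CPM in doxorubicin (1.40). Chaperones had a median of 0.06 over 38 (10 above, 3 below) and the unfolded protein response -0.03 over 22 (5 above, 5 below). Shares above and below 1 were 26.3% and 7.9% for chaperones and 22.7% each way for the unfolded protein response. Within the latter Hspa5, the main chaperone of the endoplasmic reticulum, was at 113 and 134 CPM (1.19). Interferon-stimulated genes reached 100 UMIs in 14 of 30 cases (median 0.21, 6 above or 42.9%, 1 below or 7.14%). That median was 0.10 with cluster shares held and -0.11 over members with at least 1000 UMIs, so its direction depends on which members are counted. Among them were B2m, the light chain of class I histocompatibility molecules, at 13.3 and 18.7 CPM (1.41), and Bst2, an antiviral membrane tether, at 3.08 and 4.94 CPM (1.61). Neat1, the RNA that scaffolds paraspeckles, was at 238 and 317 CPM (1.33, 1.28 to 1.38).

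Genes induced by neuronal activity were lower in the doxorubicin library. Of 31 immediate early genes, 17 had intervals below 1 and none above, where 19.5% of all genes lay below 1, and the median log2 ratio was -0.21. With TMM factors 15 lay below 1 and none above. Called lower were 2 of them, against 0.201% of all genes, and the summed level was 866 CPM in control and 762 CPM in doxorubicin. With each barcode thinned to 500 UMIs, 6 lay below 1, and in barcodes under 1000 UMIs 1 lay below and 1 above with a median of -0.02, while in barcodes with at least 1000 UMIs 17 lay below. Npas4, a transcription factor of excitatory and inhibitory synapses induced by calcium entry (chromosome 19, 4984355 to 4990316), was at 23.8 CPM (456 UMIs) and 13.1 CPM (282 UMIs), a ratio of 0.553 (0.475 to 0.642). Npas4 was lower in 7 of the 7 clusters with enough UMIs, with intervals below 1 in 6, the lowest ratios in GABAergic-like (0.3295) and granule-like neurons (0.334) and an overlapping pair of levels in CA1-like neurons, at 35.7 and 30.7 CPM (0.859, 0.641 to 1.15). Fos, a subunit of the AP-1 transcription factor, was at 9.23 and 5.83 CPM (0.631, 0.498 to 0.798). Within clusters, only list members with at least 20 UMIs over both libraries were counted. Their median was below 0 in each of the 13 compared clusters. It ran from -0.04 in astrocyte-like nuclei (19 members) to -0.55 in fibroblast-like nuclei, where it rests on 5 members. In precursor-like nuclei it rests on 6. Part of these transcripts is known to respond to handling and tissue collection, and how the 2 pools compared in that was not tested.

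The letters TGACGTCA, bound by the cAMP-responsive factor CREB, read the same on both strands. They occurred in 3 of 24 immediate early genes with a promoter (12.5%; Btg2, Dusp1 and Pcsk1), in 549 of all 27025 genes (2.03%) and in 3 of 33 complex I genes (9.09%). Dusp1, a phosphatase that switches off MAP kinases, was at 14.2 CPM in control and 10.5 CPM in doxorubicin (0.739, 0.617 to 0.885), and Btg2, an antiproliferative gene that is also a p53 target, at 30.6 and 25.2 CPM (0.823, 0.731 to 0.927). Both intervals lay below 1. Their windows (Dusp1 chr17:26508423-26508722 and Btg2 chr1:134079106-134079405, both minus strand) are shown with the match in capitals, starting 143 and 166 bases before the start site, while the windows of Npas4 and Fos held no such letters:
Dusp1: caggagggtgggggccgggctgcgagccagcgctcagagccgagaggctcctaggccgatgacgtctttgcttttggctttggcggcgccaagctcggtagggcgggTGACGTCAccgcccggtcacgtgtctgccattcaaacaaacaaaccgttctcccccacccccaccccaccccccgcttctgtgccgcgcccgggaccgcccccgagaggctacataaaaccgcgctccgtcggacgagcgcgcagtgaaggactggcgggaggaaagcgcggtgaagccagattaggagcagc
Btg2: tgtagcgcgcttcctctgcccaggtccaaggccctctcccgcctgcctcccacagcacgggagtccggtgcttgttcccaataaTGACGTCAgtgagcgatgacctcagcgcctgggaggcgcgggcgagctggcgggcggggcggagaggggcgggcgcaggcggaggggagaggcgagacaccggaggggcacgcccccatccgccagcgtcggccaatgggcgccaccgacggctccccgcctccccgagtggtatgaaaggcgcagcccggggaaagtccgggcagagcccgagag

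Leading lower genes did not share a single known role. Xlr3b, an X-linked gene imprinted in brain (chromosome X, 73192207 to 73202930), was at 7.61 CPM in control and 3.68 CPM in doxorubicin (0.484, 0.363 to 0.640). D10Wsu102e (chromosome 10, 83360221 to 83488505) was at 236 and 163 CPM (0.692, 0.662 to 0.723). Robo3, a receptor of axon guidance (chromosome 9, 37415669 to 37433246), was at 73.6 and 52.2 CPM (0.710, 0.656 to 0.768). These intervals all ended well below 1. Hist1h4i, a histone H4 gene (chromosome 13, 22040636 to 22041362), was at 19.8 and 12.3 CPM (0.622, 0.530 to 0.730), and Trim17, an E3 ubiquitin ligase of neurons, at 14.6 and 9.41 CPM (0.647). Slc7a3, a transporter of cationic amino acids, was at 18.5 and 12.3 CPM (0.664). Of the rest, Zfp976 (0.627) and Zfp955b (0.715) encode zinc finger proteins, and Calhm2 (0.501), Bend4 (0.661), Lyzl4 (0.509), Vmn2r84 (0.646) and Pcdhb16 (0.660) complete the 14.

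Among genes of RNA splicing, those named lay at higher levels. Luc7l2, a partner of the U1 particle, was at 901 CPM in control and 704 CPM in doxorubicin (0.781, 0.764 to 0.798), with intervals below 1 in 12 of 13 compared clusters. Hnrnpdl, a nuclear ribonucleoprotein, was at 582 and 466 CPM (0.779 to 0.822). The splicing list as a whole had 23 of 49 genes with intervals below 1 (46.9%, against 19.5% of all genes) and 8 above, with a median (-0.04) equal to that of all genes. With TMM factors 12 lay below and 14 above, so the list has no direction that holds under both scalings.

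Topoisomerase II beta, the drug's target in neurons, differed little. Top2b was at 121 CPM in control and 113 CPM in doxorubicin (0.933, 0.881 to 0.988), and Top1, the type I enzyme, at 292 and 281 CPM (0.963, 0.928 to 0.998). With TMM factors both intervals held 1 (0.912 to 1.02 and 0.961 to 1.03). Top2a, the isoform of dividing cells, had 18 and 32 UMIs (1.59, 0.865 to 3.01), too few to tell a difference in either direction. Topoisomerase and DNA repair genes had a median of -0.07 over 38, with 2 above 1 and 11 below (28.9%, against 19.5% of all genes), but 3 above and 2 below with TMM factors. Within it Prkdc, the kinase of DNA end joining, was at 57.7 and 65.8 CPM (1.14, 1.05 to 1.23), and Trp53bp1, which gathers at double-strand breaks, at 144 and 120 CPM (0.834). Of 33 p53 targets, 25 had enough UMIs to be compared, so the list was not surveyed in full. Of the 25, none had an interval above 1 and 5 had one below (Sesn2, Btg2, Zmat3, Mdm2 and Bax), with a median of -0.02. That share below 1 (20%) is near the 19.5% of all genes, and with TMM factors 4 lay above 1 and 4 below. Zmat3, an RNA-binding p53 target, was at 41.7 and 35.2 CPM (0.843, 0.762 to 0.933), with an interval from 0.823 to 1.56 in barcodes under 1000 UMIs.

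Chromatin modifiers had intervals below 1 for 26 of 48 genes (54.2%, against 19.5% of all genes) and above 1 for 1 (median -0.10). With TMM factors 17 lay below (35.4%, against 10.8%) and 5 above. Kmt2a, a histone H3 lysine 4 methyltransferase, was at 462 CPM in control and 401 CPM in doxorubicin (0.868), and Tet3, which oxidises methylcytosine, at 96.4 and 77.3 CPM (0.802). Deacetylases and partners had 7 of 18 below 1 (38.9%) and 1 above (median -0.13), and 4 below with TMM factors. Hdac7, a class IIa deacetylase, was at 224 and 192 CPM (0.857), and Sirt1, an NAD-dependent one, at 34.1 and 27.6 CPM (0.809). Hdac6, which acts on tubulin in the cytoplasm, was at 65.3 and 58.8 CPM (0.900, 0.832 to 0.974). Its interval reached 1 with TMM factors (0.861 to 1.01). With cluster shares held, the interval of kept nuclei scaled to the new ratio was 0.851 to 1.0005, which only just reached 1. The Hdac6 ratio was 1.0003 in thinned barcodes and 1.16 in barcodes under 1000 UMIs, so no direction is given for it. Across the 12 compared clusters with enough UMIs, the Hdac6 ratio was below 1 in 8 and above 1 in 4, with 1 interval below 1 and 1 above. It ran from 0.725 in oligodendrocyte-like to 2.42 in microglia-like nuclei (14 and 37 UMIs, 1.28 to 4.84). In GABAergic-like neurons, Hdac6 was at 132 and 105 CPM (0.790). Atat1, the tubulin acetyltransferase opposing Hdac6, was the member with an interval above 1 (1.18).

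Medians of neuronal membrane and synapse lists lay slightly below that of all genes, and for receptors and presynaptic genes the balance of counts depended on scaling. Ion channels had intervals below 1 for 19 of 41 genes (46.3%, against 19.5% of all genes) and above 1 for 2 (median -0.08; 14 below and 3 above with TMM factors), with ratios of 0.771 for Kcna4 and 0.829 for Kcnc1, both voltage-gated potassium channels. Glutamate receptor and scaffold genes had 18 of 48 below 1 (37.5%) and 3 above (-0.08), but 8 below and 8 above with TMM factors, with 0.785 for Cacng2, the AMPA receptor partner stargazin, and 0.823 for Grik5, a kainate receptor subunit. Adhesion genes had 25 of 51 below 1 (49.0%) and 2 above (-0.10), and 17 and 5 with TMM factors. Presynaptic genes were mixed, with 17 of 38 below 1 (44.7%) and 7 above (-0.07), and 8 each way with TMM factors. Neuropeptides had a median of -0.01 over 22 (4 above, 4 below), with Cck at 207 and 258 CPM (interval 1.20 to 1.30) and Sst at 89.1 and 112 CPM (1.18 to 1.33).

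Cholesterol synthesis genes had intervals below 1 for 7 of 25 (28%, against 19.5% of all genes) and above 1 for none (median -0.12), and 5 with TMM factors. Hmgcs1, which makes HMG-CoA, was at 50.1 CPM in control and 41.4 CPM in doxorubicin (0.827), and Sqle, squalene epoxidase, had a ratio of 0.831. Clock genes had 9 of 22 below 1 (40.9%) and 1 above (-0.09), and 6 and 3 with TMM factors, among them Nr1d1, the repressor REV-ERB alpha, at 28.9 and 21.8 CPM (0.752), and Dbp, a clock output factor, at 52.2 and 43.0 CPM (0.824). Glucocorticoid targets had 6 of 17 below 1 and 2 above (-0.06), and 3 each way with TMM factors. The labels give no time of day for collection. Myelin genes (0.05 over 24, 4 above, 3 below) and neurogenesis genes (0.03 over 23, 7 above, 6 below) had medians near 0. Their shares above 1 were 16.7% and 30.4%, against 9.3% of all genes, and below 1 they were 12.5% and 26.1%.

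The ratio went with transcript length across genes. Spearman's rho over 13918 genes with an annotation was -0.23 with merged exon length and -0.10 with total intron length, as a description, since genes are not replicates and share both libraries. Among the tenth of genes with the shortest exons (1392 genes, median 1210 bases), the median log2 ratio was 0.08 and 64 genes were called higher. In the tenth with the longest exons the median was -0.08 and 2 were called higher. Most respiratory and ribosomal transcripts are short, and the part of length in their ratios was not tested. With cluster shares held, rho with exon length was -0.21.

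The cell clusters, made from the nuclei of both libraries together, showed these list values within cell types. The 17 clusters, 2 of them unnamed, were named from marker lists and are called by likeness. Granule-like neurons were 23.3% of kept control and 22.5% of kept doxorubicin nuclei, CA1-like 11.98% and 13.3%, and subicular-like or cortical-like neurons 15.4% and 12.1%. Thalamic-like or habenular-like neurons were 2.39% and 3.31%, and the part of dissection in these shares was not tested. The median of all respiratory subunits lay between 0.19 in CA2-like or CA3-like neurons and 0.58 in oligodendrocyte-like nuclei in 12 of the 13 compared clusters and was -0.21 in the unnamed mitochondrial cluster. The ribosomal median lay between 0.14 and 0.48 in those 12 and was -0.14 in that cluster.

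**Figure D4:**
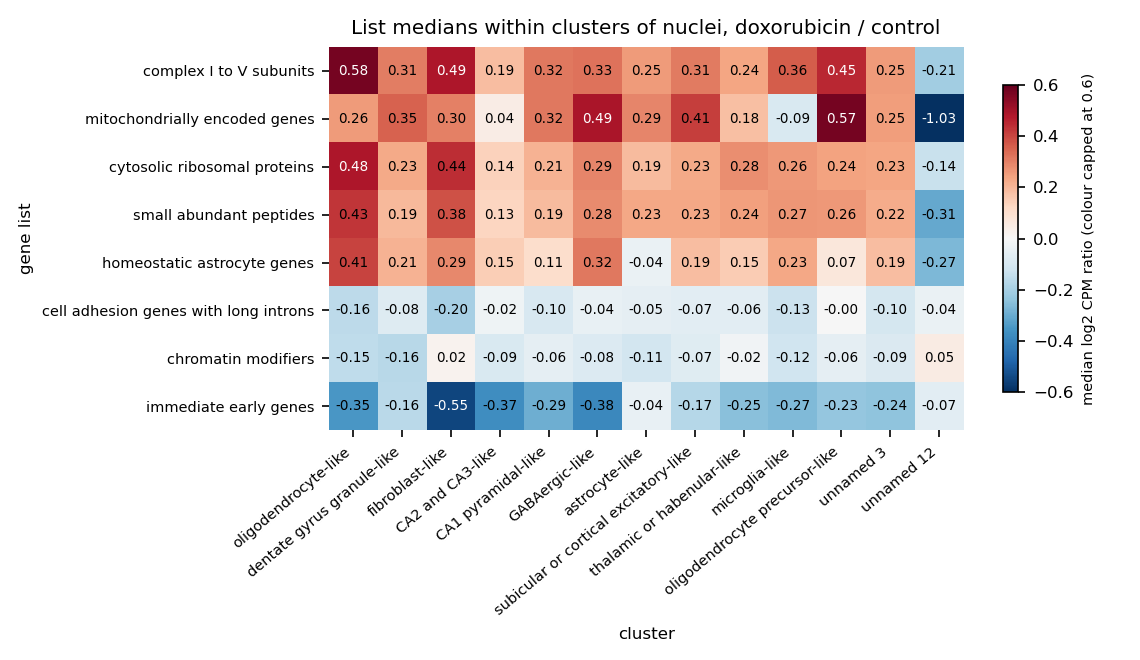
Median log2 ratio of doxorubicin to control for selected gene lists within each cluster with at least 100 nuclei in both libraries. Each median takes the members with at least 20 UMIs in the cluster, for immediate early genes from 5 in fibroblast-like to 28 in CA1-like nuclei. Respiratory and ribosomal genes are above 0 in 12 of 13 clusters and below 0 in the unnamed cluster led by mitochondrial transcripts, and immediate early genes are below 0 in each of the 13.

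Xist, the RNA that coats the inactive X chromosome of female cells, also differed, and was looked at after its value was seen. Xist (chromosome X, 103460366 to 103483254) was at 4123 CPM in control and 3287 CPM in doxorubicin (0.797, 0.789 to 0.805), and its overlapping antisense gene Tsix at 2028 and 1801 CPM (0.888). Whether counting used strand was not stated in the sources used, so reads of the pair may be mixed. Barcodes with an Xist UMI were 95.03% of control and 85.8% of doxorubicin barcodes. The gap remained in deep barcodes: of those with at least 4000 UMIs, 0.203% lacked Xist in control and 4.66% in doxorubicin, and of those with at least 1500 UMIs, 76 of 5387 (1.41%) and 529 of 6025 (8.78%).

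Among nuclei with at least 1000 UMIs, Xist was missing from 5 of 2006 granule-like neurons in control (0.249%, 0.0810 to 0.581) and from 271 of 2226 in doxorubicin (12.2%, 10.8 to 13.6). In CA1-like neurons the shares were 2.87% and 12.99%, and in GABAergic-like neurons 1.72% and 11.9%. In microglia-like nuclei they were 0 of 140, which allows up to 2.60%, and 1 of 153 (0.654%), and in thalamic-like neurons 6.25% and 6.09%. Nuclei without Xist were thus more frequent in the doxorubicin library in granule-like, CA1-like, CA2-like or CA3-like, subicular-like or cortical-like and GABAergic-like neurons and in 1 unnamed cluster, whose intervals did not overlap. Intervals overlapped in the other clusters compared: oligodendrocyte-like, precursor-like, astrocyte-like, microglia-like, fibroblast-like, choroid-plexus-like and thalamic-like nuclei, and the unnamed mitochondrial cluster, where the share was higher in control (27.6% and 20.7%).

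**Figure D5:**
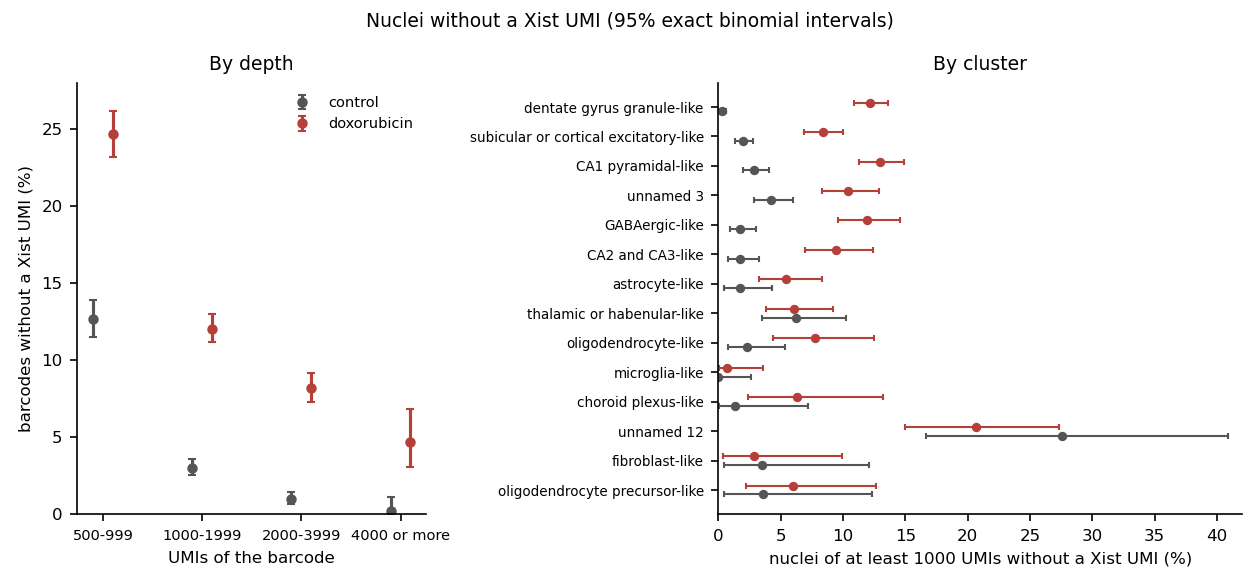
Percent of barcodes without an Xist UMI in each library by depth and by cluster, with exact 95% binomial intervals. Granule-like neurons have the widest separation (0.249% in control and 12.2% in doxorubicin), intervals overlap in glial-like, fibroblast-like, choroid-plexus-like and thalamic-like nuclei, and unnamed cluster 12 has the higher share in control (27.6% and 20.7%).

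Genes that escape X inactivation were compared between the Xist-free and Xist-bearing nuclei of the doxorubicin library, taking barcodes with at least 1500 UMIs. The summed level of Kdm6a, Kdm5c, Ddx3x and Eif2s3x was 112 CPM in the 529 nuclei with 0 Xist and 155 CPM in the 4999 with at least 3 (0.722, 0.603 to 0.857). In control the same sum was at a ratio of 1.02 over only 76 Xist-free nuclei (0.657 to 1.51). Ttr, an autosomal gene, had a ratio of 0.966 in doxorubicin. The Y-linked genes Ddx3y, Kdm5d and Eif2s3y had 0 UMIs in both libraries, and Uty had 0 and 1. Predicted genes at the boundary of the X and Y pseudoautosomal region were among the leading higher genes: Gm47283 was at 827 CPM in control and 1433 CPM in doxorubicin (1.73, 1.70 to 1.77), Gm21860 at 16.1 and 29.8 CPM (1.86, 1.62 to 2.13) and Gm21887 at 17.5 and 35.6 CPM (2.04, 1.79 to 2.32). They are near-identical copies between which counting may split reads, so their levels are uncertain. Their neighbour Mid1, a ubiquitin ligase on microtubules, was at 40.6 and 49.3 CPM (1.22, 1.11 to 1.33). What these X-linked differences reflect was not tested.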

How the data were processed

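The authors deposited 1 matrix of raw UMI counts per library. Both come from Cell Ranger 4.0.0, per the file headers; mm10 and Cell Ranger 6.0.0 stand in the submitters' processing notes. The treatment of intron reads is not given in the sources used. The members, gene lists and rules were chosen with earlier results of these data known. Named genes were the 14 highest and 14 lowest by interval bound, 2 per list, and Hdac6, Top1, Top2a and Top2b, always with at least 100 UMIs except those targets, and without predicted names. GENCODE vM21 matched 32158 of 32285 genes.

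Clustering took nuclei of 300 or more genes with mitochondrial UMIs under 5% (10463 and 11606 kept), 2000 variable genes, 30 principal components, 15 neighbours and Leiden resolution 1, in scanpy 1.11.5, without integration. Scrublet's automatic threshold marked 6 and 2 barcodes and had not worked, so a score of 0.25 (444 and 614 barcodes) was set after seeing the data, as was a marker mean of 0.5 log2 for naming. A list value is a median log2 ratio. TMM factors came from edgeR 4.0.16, which served scaling only. Intervals (scipy 1.17.1) were checked on simulated counts. With cluster shares held, each interval is that of the kept nuclei scaled to the new ratio. It is approximate, and this form was not checked.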

Additional observations from a re-analysis of the deposited data

How the results depend on the processing

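The limits are 1 library a side, pools of 4 mice with no record of each mouse, and counting intervals that say nothing of variation between mice. Genes under 100 UMIs were not compared, apart from Top2a and some markers of cell types. No paired analysis was possible because each group is 1 library. Of 101 named genes, 98 kept their sign in every alternative, and so did 29 of 40 list medians; those of GABA receptors, autophagy, histone, interferon, mitochondrial dynamics, neurogenesis, neuropeptide, p53, splicing, translation factor and unfolded protein genes did not. Medians ranged from 0.30 to 0.44 for complex I, 0.32 to 0.45 for complexes II to V, 0.23 to 0.35 for ribosomal proteins and -0.22 to -0.02 for immediate early genes. Genes called higher numbered 109, and 171 with TMM factors, 168 with median-of-ratios factors, 70 in barcodes under 1000 UMIs, 63 thinned to 500 UMIs, 64 with cluster shares held and 71 among genes with at least 1000 UMIs. Genes called lower numbered 28, and 15, 16, 17 when thinned, 18 without the mitochondrial cluster (chosen after seeing the data), 53 among genes with at least 20 UMIs and 7 among those with at least 1000. Past 1.5-fold higher were 11, and 6 under 1000 UMIs, 4 thinned, 23 from 20 UMIs and 5 from 1000 UMIs. Past 1.5-fold lower were 4, and 0 under 1000 UMIs, 0 thinned, 1 without nuclei of outside classes, 13 from 20 UMIs and 0 from 1000 UMIs. The signs of Polg2 (log2 0.60, but -0.68 under 1000 UMIs and -0.053 thinned), Hdac6 (0.22 and 0.00047) and Zmat3 (0.18 under 1000 UMIs) reversed; fewer UMIs enter those sums, and the cause was not tested. Spearman's rho with intron length was -0.18 for genes with at least 1000 UMIs.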

Other observations

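Of genes in no list and called in either direction, some are given here, chosen after their values were seen and standing for no family or cell type. S100a10, a small binding partner of annexin A2, was at 6.52 CPM in control and 10.5 CPM in doxorubicin (1.62, 1.29 to 2.03), with 1.52 at fixed cluster shares. Mgp, matrix Gla protein, was at 25.1 and 36.4 CPM (1.45, 1.29 to 1.63), with 1.39 at fixed shares, and Apod, a lipocalin, at 91.8 and 131 CPM (1.42, 1.34 to 1.51), with 1.39. The fibroblast marker Col3a1, a collagen, lay the opposite way, with 52 and 29 UMIs (0.498, 0.305 to 0.7997). It was the 1 marker of 13 in the fibroblast list with an interval below 1. Another 1 lay above, and the summed list had a ratio of 1.08 (1.02 to 1.15). Of genes that were lower, Itpkc, an inositol trisphosphate kinase, was at 9.13 and 5.69 CPM (0.623, 0.490 to 0.789), with 0.639 at fixed shares. Rxfp1, the relaxin receptor, was at 54.5 and 39.7 CPM (0.728, 0.664 to 0.798), with 0.881 at fixed shares, and Col19a1, a collagen of some interneurons, was at 39.8 and 28.1 CPM (0.706, 0.634 to 0.787), with 0.790. For Rxfp1 the ratio moved nearer to 1 when the shares were held, and for Itpkc it moved little.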
